A study of Mus musculus with 16 samples.

Results

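The genes described here build the kinetochore, the protein assembly through which a chromosome is pulled to a spindle pole, and run the spindle checkpoint that watches it. The set is a list of 41 gene symbols, grouped by function with no threshold on a measured value but drawn up with earlier results of these data known, and all 41 were found among the 48709 genes of the RNA-seq tables. By role they fall into 15 genes of the inner centromere, 14 of the outer kinetochore, 6 of the spindle checkpoint, and 6 of the chromosomal passenger complex and the shugoshins, which protect sister chromatid cohesion. The cells were mouse organ of Corti progenitors, which give rise to the sensory epithelium of the cochlea. They were purified by fluorescence-activated sorting as Sox2-GFP+ cells at embryonic day 12 (E12.0) or as p27-GFP+ cells at E13.5, where Sox2 is a progenitor transcription factor and p27 a cyclin-dependent kinase inhibitor. No treatment is given in the labels. Age and sorting reporter change together, and the RNA libraries of the stages also differ in depth, fragments and mitochondrial RNA, as given below. The parts of all these in the stage differences cannot be told apart. Each stage had 2 RNA-seq libraries, 3 ATAC-seq libraries (open chromatin) and 2 CUT&RUN libraries for H3K27ac, a histone mark of active regions. A further 2 CUT&RUN libraries at E12.0 profiled Tead, the DNA-binding partner of the growth co-activator Yap.

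In every cell cycle a nucleosome with the histone variant CENP-A marks the centromere, and a constitutive network of CENP proteins sits on it. During mitosis this network recruits the outer kinetochore, whose Ndc80 complex grips microtubules. Kinetochores without microtubules catalyse a checkpoint signal from Mad and Bub proteins that holds back the anaphase-promoting complex. Many of these genes are known to be transcribed chiefly in G2 and M phase. Prosensory progenitors of the cochlea are known to leave the cell cycle as p27 appears.

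A promoter element known from G2/M genes is the cell cycle homology region (CHR), which is bound by the MuvB complex and often accompanies CCAAT boxes, the site of the factor NF-Y. The 8 promoters below were chosen, with their values known, to show genes whose RNA fell by more than 4-fold at E13.5 and which carry CHR letters near the start, and, at the end, genes whose RNA rose or did not pass the test. Each runs from 120 bases before the listed start to 20 bases from it, 5′ to 3′ on the gene's strand (RefSeq, GRCm38.p6). Capitals mark TTTGAA or TTTAAA and CCAAT on either strand, so that TTCAAA and ATTGG are the same letters read from the other strand. The windows are chr14:57826144-57826283 (minus strand) for Ska3, chr9:83834569-83834708 (plus) for Ttk, chr3:135212443-135212582 (plus) for Cenpe, chr8:116921620-116921759 (plus) for Cenpn, chr7:131560250-131560389 (plus) for Bub3, chr5:140321533-140321672 (minus) for Mad1l1, chr2:131180048-131180187 (minus) for Cenpb and chr11:71019491-71019630 (plus) for Mis12.
Ska3: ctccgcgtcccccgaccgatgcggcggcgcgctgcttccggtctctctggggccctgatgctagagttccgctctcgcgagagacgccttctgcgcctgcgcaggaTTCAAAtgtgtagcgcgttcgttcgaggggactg
Ttk: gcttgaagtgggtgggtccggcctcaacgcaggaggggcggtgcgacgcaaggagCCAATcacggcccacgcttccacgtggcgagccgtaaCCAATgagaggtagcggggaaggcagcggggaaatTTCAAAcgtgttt
Cenpe: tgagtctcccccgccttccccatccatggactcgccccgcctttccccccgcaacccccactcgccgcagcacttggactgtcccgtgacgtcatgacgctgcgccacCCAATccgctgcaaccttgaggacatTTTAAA
Cenpn: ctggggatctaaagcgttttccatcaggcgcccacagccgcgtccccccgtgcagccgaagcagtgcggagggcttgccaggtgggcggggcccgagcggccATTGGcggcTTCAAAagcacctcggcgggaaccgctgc
Bub3: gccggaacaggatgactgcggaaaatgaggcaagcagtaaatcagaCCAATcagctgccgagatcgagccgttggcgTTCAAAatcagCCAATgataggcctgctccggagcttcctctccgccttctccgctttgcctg
Mad1l1: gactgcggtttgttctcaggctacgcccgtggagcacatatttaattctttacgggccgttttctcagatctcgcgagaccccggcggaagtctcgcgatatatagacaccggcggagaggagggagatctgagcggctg
Cenpb: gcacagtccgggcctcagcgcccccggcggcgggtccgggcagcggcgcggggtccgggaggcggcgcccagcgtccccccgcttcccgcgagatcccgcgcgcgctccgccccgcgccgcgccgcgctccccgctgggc
Mis12: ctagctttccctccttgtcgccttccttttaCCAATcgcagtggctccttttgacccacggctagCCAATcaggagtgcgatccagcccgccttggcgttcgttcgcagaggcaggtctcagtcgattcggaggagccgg
The first 5 carry CHR letters, at -14 in Ska3, 8 in Ttk, 15 in Cenpe, -9 in Cenpn and -43 in Bub3, counted to the first base of the match with 1 as the start base and -1 as the base before it. Ttk and Bub3 also hold a pair of CCAAT boxes each, while Ska3 holds none. Neither motif was found in Mad1l1 or Cenpb, and Mis12 holds CCAAT boxes without CHR letters. The genes at the end thus all lack CHR letters here, so the 8 promoters cannot show whether these letters go with a fall. In the longer window used below, 14 of 27 genes whose RNA passed the test as lower held CHR letters. So did 1 of 3 that passed as higher (Cenpt) and 3 of 6 that did not pass (Cenpc1, Cenpw and Pmf1).

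The RNA of most kinetochore and checkpoint genes fell from E12.0 to E13.5. All 41 passed the filter on low counts, and 32 were called lower and 3 higher at E13.5 (edgeR quasi-likelihood test, Benjamini-Hochberg adjusted p under 0.05, 2 against 2 libraries), where 23.5% of the 15982 genes tested were called lower and 22.4% higher. The median log2 fold change of the 41 was -2.15, against 0.05 over all genes tested. The libraries of the 2 stages did not overlap for 35 genes with E13.5 lower and 4 with E13.5 higher, beside 36.1% and 39.3% of all genes tested. Against a null of a 2-fold change, 26 were lower and 2 higher, beside 13.9% and 10.7% of all genes. Summed over the 41 genes, the RNA was 2920 and 2933 CPM (counts relative to the library total as scaled by TMM) at E12.0 and 623.9 and 753.5 CPM at E13.5, a ratio of 4.25. In bulk libraries of this kind, fewer cells in mitosis and less of these RNAs per cell cannot be told apart. Nothing in the labels ties the replicates to different litters, and the p-values therefore cover only the spread between these libraries.

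**Figure D1:**
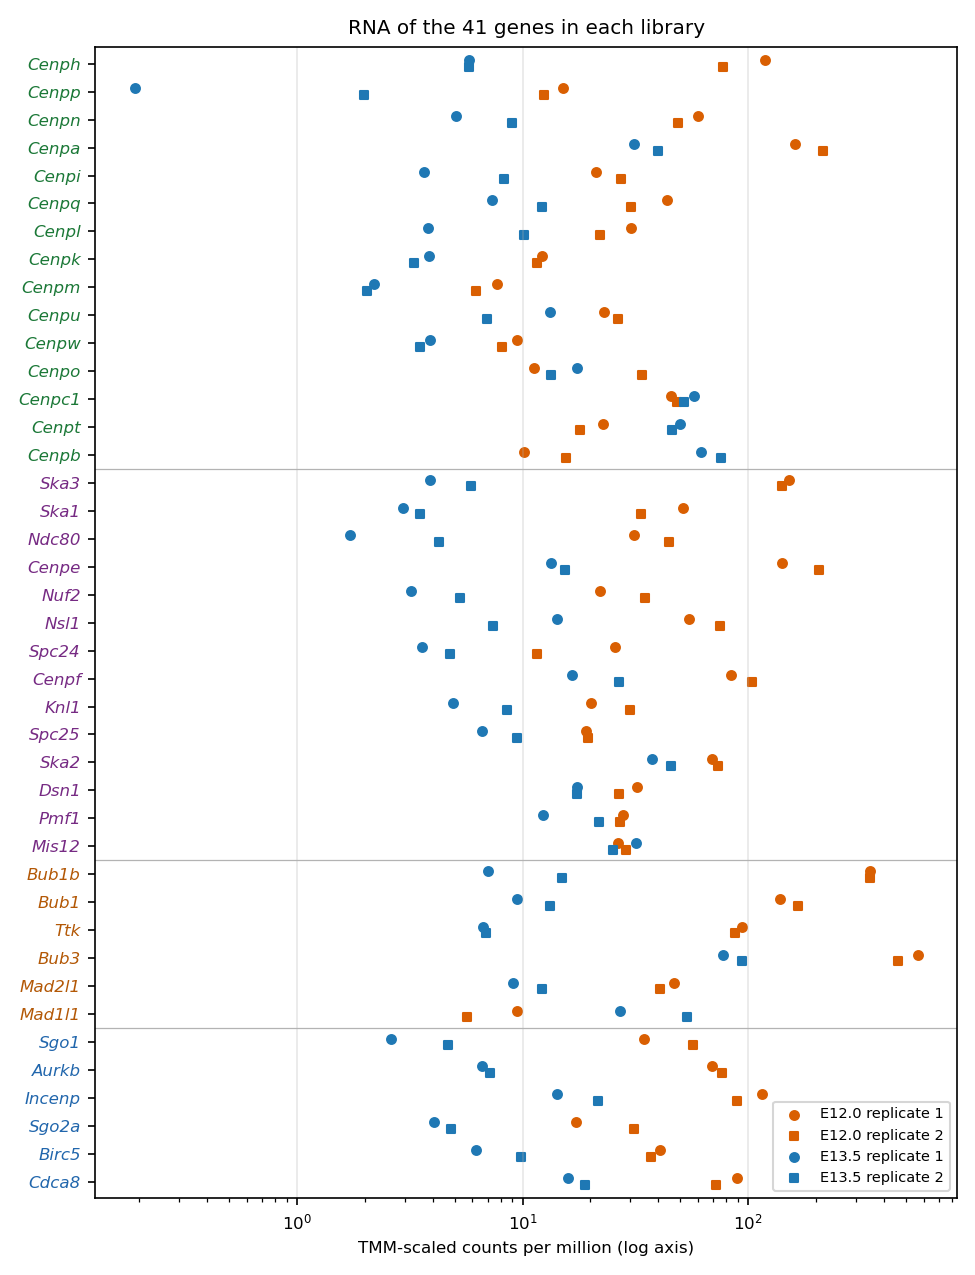
TMM-scaled CPM on a log axis for the 41 genes in the 4 RNA-seq libraries (orange E12.0, blue E13.5, circle replicate 1, square replicate 2), grouped by role with the gene names in the colour of the role. The blue points lie left of the orange ones for 35 genes and right of them for 4.

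Expected counts summed to 9412326 and 9810603 in the earlier RNA libraries, and to 17057751 and 19570946 in the later ones. At these depths 10 counts stand for 0.424 to 1.38 CPM. Of 10 prosensory genes 5 were called higher and 2 lower at E13.5, led by Cdkn1b, the gene of p27, which had 7.70 and 8.59 CPM in the earlier and 228.5 and 182.3 CPM in the later libraries. The mitochondrial ribosomal RNA mt-Rnr2 made up 17% and 13.2% of counts in the earlier and 0.295% and 0.18% in the later libraries; without the mitochondrial genes the calls on the 41 were 32 lower and 3 higher. The RNA of 5 melanocyte genes summed to 0.275 and 0.118 CPM at E12.0, where only Pmel had counts, and to 2.76 and 27.2 CPM at E13.5. The summed level of 5 glial and neural crest genes was 1792 and 2102 CPM at E12.0 and 644.2 and 680.2 CPM at E13.5, most of it Erbb3, and that of 6 neuronal genes was 17.9 and 24.0 CPM at E12.0 and 13 and 11.3 CPM at E13.5. Within that sum Neurod1, a neuroblast transcription factor, had 7.84 and 13.65 CPM at E12.0 and 0 and 0.0424 CPM at E13.5 and was called lower (edgeR adjusted p = 0.000134). Neurog1, which acts before it, had 3 and 13 counts at E12.0 and 0 in both E13.5 libraries, and the neuronal tubulin Tubb3 had 4.13 and 5.30 CPM against 10.05 and 9.11 CPM and was not called. Mesenchymal genes (6) reached at most 39.2 CPM, endothelial (4) 4.40, erythroid (4) 0.143, immune (4) 11.97 and hair cell genes (4) 22.2 CPM in any library, and Neurod4 and Hbb-bt were at 0 in all 4. The part that other cell types play in the differences below was not tested.

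The inner centromere group had the fewest falls for its size, with 10 of 15 called lower, 2 higher and a median log2 fold change of -1.74. Its summed level was 593.3 and 602.6 CPM at E12.0 and 267.2 and 290.2 CPM at E13.5, a ratio of 2.15. Cenpa encodes the centromeric histone itself. Its RNA measured 162 and 216 CPM at E12.0 against 31.2 and 40.0 CPM at E13.5, with both later libraries far below both earlier ones, and the log2 fold change was -2.40 ± 0.28 (SE, n = 2 per stage; edgeR adjusted p = 0.000102). Cenpc1, the gene of CENP-C, which joins the CENP-A nucleosome to the outer kinetochore, had 45.5 and 48.4 CPM at E12.0 and 57.6 and 51.9 CPM at E13.5. Both E13.5 values lay slightly above, but the change of 0.22 ± 0.26 did not pass the test (edgeR adjusted p = 0.52). Cenpc1 was called higher under some other scalings, given at the end. The RNA of its 2 neighbours on the chromatin, the CENP-A histone and CENP-B, moved in opposite directions.

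Cenpb, which encodes a protein that binds a short DNA box in centromeric satellite repeats, rose. Its RNA was 10.2 and 15.7 CPM at E12.0 and 62.1 and 75.7 CPM at E13.5, without overlap, a rise of 2.41 ± 0.33 on the log2 scale (edgeR adjusted p = 0.000293). Cenpt, the gene of CENP-T, a DNA-bound protein that recruits Ndc80 complexes by its own route, also rose, from 22.7 and 18.01 CPM to 49.9 and 46.0 CPM. Its log2 fold change of 1.24 ± 0.31 passed the test against no change (edgeR adjusted p = 0.00798) but not against a 2-fold change (adjusted p = 0.228). Its partner Cenpw had 9.49 and 8.12 CPM at E12.0 against 3.91 and 3.52 CPM at E13.5, also without overlap, and was not called at -1.24 ± 0.55 (edgeR adjusted p = 0.0883). The genes of these 2 histone-fold partners thus differed in the sign of their change, and the difference between them was not tested. Cenpt shares its span with Tsnaxip1, and no label or file header says whether counting used the strand.

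The CENP-H/I/K/M subcomplex and the CENP-L/N pair, which bind CENP-A chromatin and CENP-C, were called lower in every gene (4 of 4 and 2 of 2). Cenph fell furthest in the inner centromere. Its RNA was 119 and 77.2 CPM at E12.0 and 5.76 and 5.81 CPM at E13.5, and the log2 fold change was -4.08 ± 0.34 (edgeR adjusted p = 1.68e-05). The other members of the 2 groups, Cenpi, Cenpk, Cenpm, Cenpl and Cenpn, had log2 fold changes of -2.95 to -1.72. Cenpk, Cenpl and Cenpm lost their calls when E12.0 replicate 1 was left out (edgeR adjusted p = 0.0535, 0.0544 and 0.146). Cenpk also did so without E13.5 replicate 2 (0.0588), and Cenpm without any 1 of the other 3 libraries (0.075 to 0.119).

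In the CENP-O/P/Q/U group, needed for stable attachment, 3 of 4 genes were called lower. Cenpp had 15.1 and 12.5 CPM at E12.0 against 0.191 and 1.99 CPM at E13.5, where the first of the 2 later values rests on 4 counts and the second on 47. The log2 fold change of -3.64 ± 0.87 carries the largest standard error among the 41 (edgeR adjusted p = 0.00673), and it was -2.78 without E13.5 replicate 1 and -6.11 without E13.5 replicate 2. The span of Cenpp also overlaps 5 other protein-coding genes. Cenpo had 11.3 and 34.0 CPM at E12.0 and 17.5 and 13.3 CPM at E13.5. These stages overlap, and its change of -0.56 ± 0.49 was not called (edgeR adjusted p = 0.377), with a change of 0.45 when E12.0 replicate 2 was left out. Cenpq and Cenpu changed by -1.92 and -1.30, and the call on Cenpu was lost without E12.0 replicate 2 or without E13.5 replicate 2 (edgeR adjusted p = 0.099 and 0.153).

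**Figure D2:**
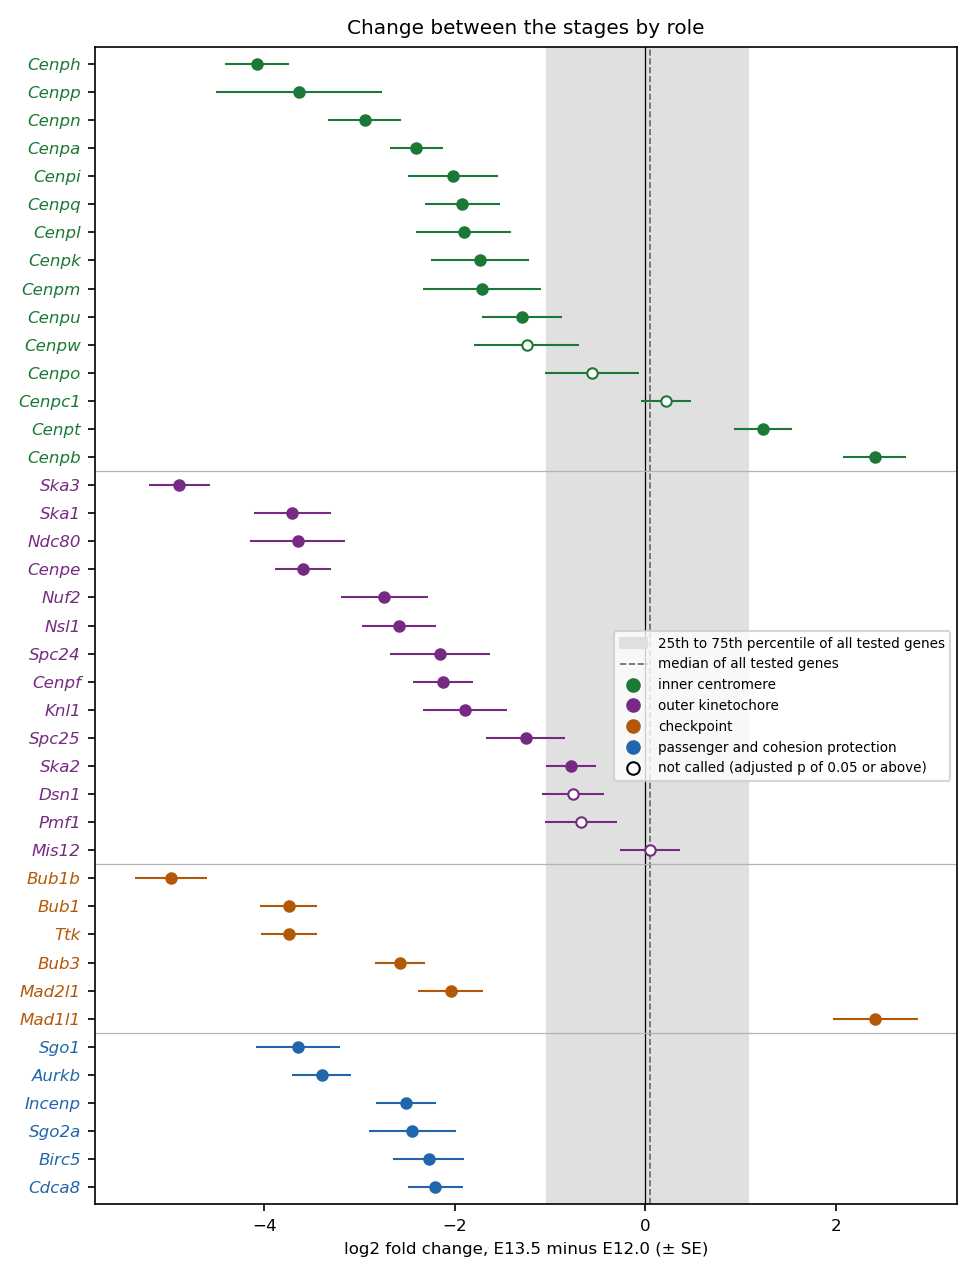
Log2 fold change, E13.5 minus E12.0, with its standard error (horizontal bars) for the 41 genes, ordered within each role; filled points passed edgeR's test and open points did not, the grey band spans the 25th to 75th percentile of all genes tested and the dashed line is their median. The 6 passenger and shugoshin genes lie between -3.65 and -2.21, while Cenpb, Cenpt and Mad1l1 lie right of 0.

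Of the 14 outer kinetochore genes 11 were called lower and none higher, with a median log2 fold change of -2.14. Their summed level was 757.6 and 857.6 CPM at E12.0 and 170.1 and 201.4 CPM at E13.5, a ratio of 4.35. The Ska complex, which helps the kinetochore hold on to shrinking microtubule ends, held the gene of this group that fell furthest. Ska3 had 152 and 142 CPM at E12.0 and 3.91 and 5.93 CPM at E13.5, with a log2 fold change of -4.90 ± 0.32 by edgeR (adjusted p = 7.49e-06). Ska1 fell from 51.3 and 33.4 CPM to 2.95 and 3.52 CPM (-3.71 ± 0.40; edgeR adjusted p = 7.24e-05). Ska2, the third subunit of the same complex, changed by -0.78 ± 0.26 only (edgeR adjusted p = 0.0338), and its call was lost whichever library was left out (0.0615 to 0.191). Ska3 overlaps the mitochondrial ribosomal gene Mrpl57, whose start lies within 1000 bp.

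All 4 subunits of the Ndc80 complex, the main microtubule coupler, were called lower. Ndc80 had 31.2 and 44.5 CPM at E12.0 and 1.72 and 4.28 CPM at E13.5 (-3.65 ± 0.50; edgeR adjusted p = 0.000275). Its dimer partner Nuf2 had 22.01 and 34.8 CPM at E12.0 and 3.19 and 5.30 CPM at E13.5 (-2.74 ± 0.45; edgeR adjusted p = 0.00087). The genes of the other end of the rod, the Spc24 and Spc25 dimer that docks on the centromere side, changed less. Spc24 had 25.6 and 11.5 CPM at E12.0 and 3.57 and 4.75 CPM at E13.5 (-2.15 ± 0.52), and Spc25 had 19.1 and 19.4 CPM at E12.0 and 6.62 and 9.49 CPM at E13.5 (-1.26 ± 0.42). Neither gene's libraries overlapped between the stages. The edgeR adjusted p was 0.00729 and 0.0303; Spc24 lost its call without E12.0 replicate 1 (0.0835), and Spc25 without either E12.0 library (0.0691 and 0.076) or the first E13.5 library (0.141). The difference between the dimers was not tested.

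The Mis12 complex, the bridge between CENP-C and the microtubule couplers, showed 1 fall and 3 genes that were not called. Nsl1 fell from 54.9 and 75.1 CPM to 14.3 and 7.37 CPM (-2.59 ± 0.38; edgeR adjusted p = 0.000464). Mis12 itself had 26.4 and 28.7 CPM at E12.0 and 31.8 and 25.2 CPM at E13.5, overlapping, with a change of 0.05 ± 0.32. Dsn1 had 32.2 and 26.8 CPM at E12.0 and 17.5 and 17.4 CPM at E13.5 (-0.76 ± 0.33). Pmf1, the fourth subunit, had 27.8 and 26.96 CPM at E12.0 and 12.3 and 21.9 CPM at E13.5 (-0.68 ± 0.38). For Dsn1 and Pmf1 the stages did not overlap, and the edgeR adjusted p of these 3 genes was 0.913, 0.0831 and 0.165. Mis12 overlaps Derl2 and Nsl1 overlaps Tatdn3, so their counts may include reads of the neighbour.

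The RNA of the 2 large coiled-coil proteins of the fibrous corona fell. Cenpe, the gene of a kinesin that moves chromosomes along microtubules, had 142 and 206 CPM at E12.0 and 13.4 and 15.4 CPM at E13.5 (-3.59 ± 0.30; edgeR adjusted p = 1.68e-05). Cenpf had 84.3 and 105 CPM at E12.0 and 16.6 and 26.7 CPM at E13.5 (-2.13 ± 0.31; edgeR adjusted p = 0.000447). Knl1, the scaffold on which Bub proteins dock, had 20.2 and 30.0 CPM at E12.0 and 4.91 and 8.56 CPM at E13.5 (-1.90 ± 0.44; edgeR adjusted p = 0.00574), a fall in counts that was not seen once gene length entered the fit.

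Length mattered for a few of these genes because the deposited tables give each gene its own length in each library, as an average over the transcripts estimated there. For Knl1 the length was 7755.4 and 7783.8 bases in the earlier libraries, against 1704 and 2263.1 bases in the later, so the later counts were assigned to shorter transcripts on average. With the effective length as an offset in the edgeR fit, a setting added after the data were seen, the change of Knl1 was 0.16 ± 0.42 (adjusted p = 0.774) where the counts alone gave a fall. Cenpe moved the other way, with lengths of 2822.4 and 2773.2 bases at E12.0 and 7910 and 7910 bases at E13.5, and its change with the offset was -5.14 ± 0.33 (edgeR adjusted p = 6.02e-06). Mad2l1 had effective lengths, which leave out the positions near the ends where no whole fragment can start, of 2617 and 2422.2 bases at E12.0 and 1609.8 and 1740.8 bases at E13.5. These 3 were the members whose mean effective length at E13.5 was under 1/1.5 of that at E12.0 (2 genes, beside 4.61% of all genes tested) or over 1.5 times it (1 gene, beside 5.06%). Whether such lengths reflect other transcripts in the cells or the estimation was not tested; fragments also differed, since effective length fell short of length by a median of 146 and 141 bases in the earlier libraries and 189 and 188 in the later.

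**Figure D3:**
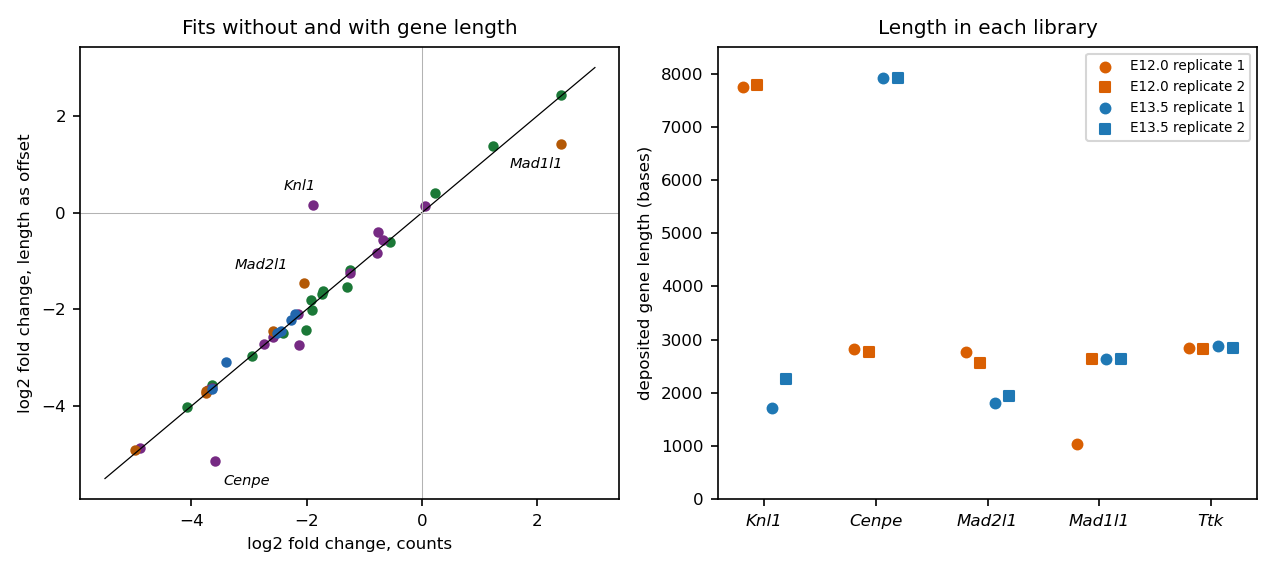
Left, log2 fold change of the 41 genes from counts alone (x axis) and with effective gene length as an offset (y axis), coloured by role, with the line of equal values; right, the deposited gene length in bases in each library for Knl1, Cenpe, Mad2l1, Mad1l1 and, as a gene of steady length, Ttk. Most genes lie near the line, while Knl1 moves from -1.90 to 0.16 and Cenpe from -3.59 to -5.14.

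The checkpoint genes showed the largest median fall, at -3.16, with 5 of 6 called lower and 1 higher. Their summed level was 1203 and 1109 CPM at E12.0 and 137 and 194.8 CPM at E13.5, a ratio of 6.97. Bub1b encodes BubR1, the part of the mitotic checkpoint complex that blocks Cdc20. It had 348.3 and 348.5 CPM at E12.0 and 7.05 and 14.9 CPM at E13.5, the largest log2 fold change of the set at -4.98 ± 0.38 (edgeR adjusted p = 1.31e-05). Bub1, the kinase that recruits the others to Knl1, had 138 and 167 CPM at E12.0 and 9.48 and 13.2 CPM at E13.5 (-3.75 ± 0.30; edgeR adjusted p = 1.47e-05). Ttk, the gene of the Mps1 kinase that starts the signal, had 94.4 and 87.3 CPM at E12.0 and 6.67 and 6.91 CPM at E13.5 (-3.74 ± 0.30; edgeR adjusted p = 1.46e-05). In each of these 3 genes the lower E12.0 library stood well above the higher E13.5 library.

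Bub3 encodes a small propeller protein that carries Bub1 and BubR1 and also acts outside mitosis. Its RNA was the most abundant of the 41 per length at both stages. It had 566 and 460.4 CPM at E12.0 and 77.7 and 94.0 CPM at E13.5, a fall of -2.58 ± 0.26 (edgeR adjusted p = 5.00e-05). Mad2l1, the gene of Mad2, the protein that changes fold to bind Cdc20, had 46.9 and 40.7 CPM at E12.0 and 9.05 and 12.2 CPM at E13.5 (-2.04 ± 0.34; edgeR adjusted p = 0.000894), and a change of -1.46 ± 0.34 with the length offset (adjusted p = 0.006). Mad1l1, whose product is Mad2's partner at the unattached kinetochore, went the other way. It had 9.49 and 5.65 CPM at E12.0 and 27.1 and 53.6 CPM at E13.5, without overlap, a rise of 2.42 ± 0.45 (edgeR adjusted p = 0.00163). Its deposited length was 1029.1 bases in E12.0 replicate 1 and 2625.5 to 2640 bases in the other 3 libraries, and with the length offset the rise of 1.43 ± 0.63 did not pass (adjusted p = 0.0862). Mad1l1 spans chr5:140008689-140321608 and overlaps the long noncoding genes Gm30492 and Gm16120.

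The chromosomal passenger complex corrects wrong attachments and was called lower in all 4 subunits. Aurkb, its kinase, had 69.2 and 76.6 CPM at E12.0 and 6.62 and 7.21 CPM at E13.5 (-3.40 ± 0.31; edgeR adjusted p = 2.79e-05). Incenp, the scaffold, had 115 and 89.2 CPM at E12.0 and 14.2 and 21.6 CPM at E13.5 (-2.51 ± 0.31; edgeR adjusted p = 0.000162). Birc5, the gene of survivin, had 40.7 and 37.1 CPM at E12.0 and 6.19 and 9.88 CPM at E13.5 (-2.27 ± 0.37; edgeR adjusted p = 0.000828). Cdca8, the gene of borealin, had 89.1 and 72.0 CPM at E12.0 and 16.0 and 18.9 CPM at E13.5 (-2.21 ± 0.29; edgeR adjusted p = 0.000225). None of the 4 genes overlapped between the stages.

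For both shugoshins, which keep centromeric cohesin from being cleaved or removed early, the RNA fell. Sgo1 had 34.5 and 57.0 CPM at E12.0 and 2.62 and 4.66 CPM at E13.5 (-3.65 ± 0.44; edgeR adjusted p = 0.000139). Sgo2a had 17.3 and 31.1 CPM at E12.0 and 4.05 and 4.83 CPM at E13.5 (-2.45 ± 0.45; edgeR adjusted p = 0.0017). With the 4 passenger genes they summed to 365.8 and 363 CPM at E12.0 and 49.6 and 67.1 CPM at E13.5, a ratio of 6.25.

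Per length, the order of the genes differed between the stages. In TPM (counts divided by effective length and scaled to the same total in every library) the levels at E12.0 were led by Bub3 at 317 and 320 TPM, Cenpa at 160 and 245 TPM and Bub1b at 111 and 146 TPM, and ended with Cenpb at 2.37 and 4.62 TPM. At E13.5 Bub3 led at 96.8 and 111 TPM, followed by Cenpt at 69.1 and 62.2 TPM and Cenpa at 57.9 and 67.3 TPM. At E12.0 the libraries of these leading genes did not overlap from one gene to the next, while at E13.5 those of Cenpt and Cenpa did. Cenpb moved from rank 41 of 41 to rank 8 and Mad1l1 from rank 38 to rank 6, while Bub1b moved from rank 3 to rank 28. The summed level was 1597 and 1977 TPM at E12.0 and 685.7 and 809.6 TPM at E13.5, a ratio of 2.39. TPM carries a shift of its own: on the log2(TPM + 1) scale the median of all genes was 0.76 and that of the 41 was -1.39, with 22 called lower and 4 higher by limma (13.1% and 42.7% of all genes). Centred on each library's median, the same values gave 32 lower and 2 higher (23.8% and 21.2% of all genes).

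Within E13.5 the 2 libraries also differed for these genes. Replicate 2 was above replicate 1 in 31 of 41 (75.6%), beside 52.2% of all genes tested, and the median log2 ratio was 0.36 against 0.03. At E12.0 replicate 2 was above replicate 1 in 20 of 41 (48.8%, beside 49.5%). Replicate 2 at E13.5 is the library with more melanocyte RNA (27.2 against 2.76 CPM), and the part of it in this shift was not tested. When it was left out the median of the 41 was -2.51, and without E13.5 replicate 1 it was -1.96.

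Neighbouring machinery moved to different extents. Its counts stand beside 23.5% of all genes tested called lower and 22.4% higher by edgeR, and 13.1% and 42.7% by limma on TPM. Of 12 genes for centromere loading and the RZZ complex, 10 were called lower and none higher by edgeR (median log2 fold change -1.97; 5 lower and 1 higher by limma on TPM), led by Mis18a, part of the complex that licenses CENP-A loading, at -3.15 ± 0.41. Hjurp, the CENP-A chaperone, had 194.6 and 189 CPM at E12.0 and 80.1 and 54.6 CPM at E13.5 (-1.51 ± 0.27; edgeR adjusted p = 0.00126). Its effective length was shorter at E13.5, so that the levels per length were 47.4 and 58.7 TPM against 63.4 and 39.1 TPM, which overlap, and with the length offset the change was -0.87 ± 0.28 (edgeR adjusted p = 0.0289). Of 24 genes for checkpoint silencing and anaphase, 14 were lower and 3 higher (median -1.72). Cdc20, the checkpoint's target, had 54.5 and 42.1 CPM at E12.0 and 9.67 and 16.3 CPM at E13.5 (-1.89 ± 0.36; edgeR adjusted p = 0.002). Fzr1, the gene of Cdh1, which replaces Cdc20 on the anaphase-promoting complex in G1, had 11.8 and 11.0 CPM at E12.0 and 93.7 and 120.2 CPM at E13.5 (3.23 ± 0.29; edgeR adjusted p = 2.76e-05). The count of 3 higher genes was 1 without E12.0 replicate 1 and 1 without E13.5 replicate 2.

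Cohesin and condensin had 9 of 18 genes lower and 1 higher (median -0.65), from Cdca5, the gene of sororin, at -4.11 ± 0.33 to Stag2 at 0.79 ± 0.24, a call lost without the first E12.0 library or without either E13.5 library. Of 23 genes for the transcription of G2/M genes, 12 were lower and none higher by edgeR (median -1.43; 5 lower and 3 higher by limma on TPM). Nfya, a subunit of NF-Y, had 47.6 and 56.0 CPM at E12.0 and 1.43 and 2.54 CPM at E13.5 (-4.69 ± 0.42; edgeR adjusted p = 2.42e-05), and its change with the length offset was -3.15 ± 0.50 (adjusted p = 0.000692). Mybl2, the gene of B-Myb, which joins MuvB in cycling cells, fell by 3.34 on the log2 scale (SE 0.44) and Foxm1, which binds G2/M promoters through MuvB, by 1.99 (SE 0.34), or by 1.37 (SE 0.35) with the length offset. Cdk1, the mitotic kinase, fell by 4.37 (SE 0.35).

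Open chromatin at the starts of these genes was present at both stages. A start was listed in the promoter table for 36 of the 41, and Spc24, Nsl1, Ska1, Aurkb and Incenp are not described by it. Peaks here and below were counted at any listed start of a gene. An ATAC peak lay within 1000 bp of a listed start in all 6 libraries for 36 of 36 genes. The share was 61.9% of 17492 protein-coding genes and 92.6% of those tested by RNA-seq. Sgo2a has 2 listed starts and is counted through the second. Its first is the start of its span, and the ends of that span had a peak in 1 E12.0 library and 0 E13.5 libraries. Most member peaks ranked high by the authors' fold, taking the strongest peak in each gene's window. The median stood at percentile 97.3 to 98.1 of its list, and the lowest in any library at 57.8 (Dsn1, E12.0 replicate 1). Each list holds peaks from anywhere in the genome, and the start peaks of other genes were not ranked. A trait of these genes therefore cannot be told from one of gene starts in general. Bub1b, whose RNA fell most, had folds of 9.54, 15.9 and 10.2 in the earlier and 20.3, 13.8 and 13.3 in the later libraries. Cenpb, whose RNA rose, had folds of 5.38, 10.7 and 7.70 in the earlier and 8.86, 8.04 and 8.82 in the later libraries. Lists differ in length (112621 to 143817 peaks at E12.0, 208061 to 226496 at E13.5), so these folds describe ranks within a list and no change. For 9 of the 36 another gene starts within 1000 bp, among them Cenpn, Mis12 and Ska3, and a peak there belongs to both.

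H3K27ac at the starts differed widely between the libraries of a stage. A peak was found at 31 and 22 of the 36 starts in the first and second E12.0 library (41.9% and 28.9% of protein-coding genes, 67.9% and 45% of those tested by RNA-seq), and at 36 and 14 in the E13.5 libraries (51.3% and 16.6%, 81.4% and 25.3%). Both E12.0 libraries held one at 22 starts (61.1%; 24.8% of protein-coding genes and 40.8% of those tested by RNA-seq), and both E13.5 libraries at 14 (38.9%; 15.1% and 24.6%). The lowest count belongs to E13.5 replicate 2, which also had the lowest share over all genes; without it the E13.5 count was 36, and with −log10 q of at least 2 it was 9. Per the labels E12.0 replicate 1 was made with another library kit (KAPA HTP) than the other H3K27ac libraries (Accel 2S Plus). No start had peaks in both E12.0 libraries and in no E13.5 library, or the reverse, beside 0.292% and 0.732% of protein-coding genes (0.309% and 0.876% of those tested by RNA-seq). The 12 genes marked in all 4 libraries (33.3%, beside 11.2% and 18.6%) included Ska3, whose RNA was 29.8-fold lower at E13.5, Cenpe, 12.1-fold lower, and Mis12 and Cenpc1, which were not called. The 5 starts without a deposited H3K27ac peak at E12.0 (13.9%, beside 53.9% and 28%) were those of Cenpb, Cenpw, Bub1, Bub1b and Cdca8. Bub1 and Bub1b thus had no listed peak at the stage where their RNA was higher. A missing peak does not show a missing mark, since only 45% of genes tested by RNA-seq had one in E12.0 replicate 2.

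**Figure D4:**
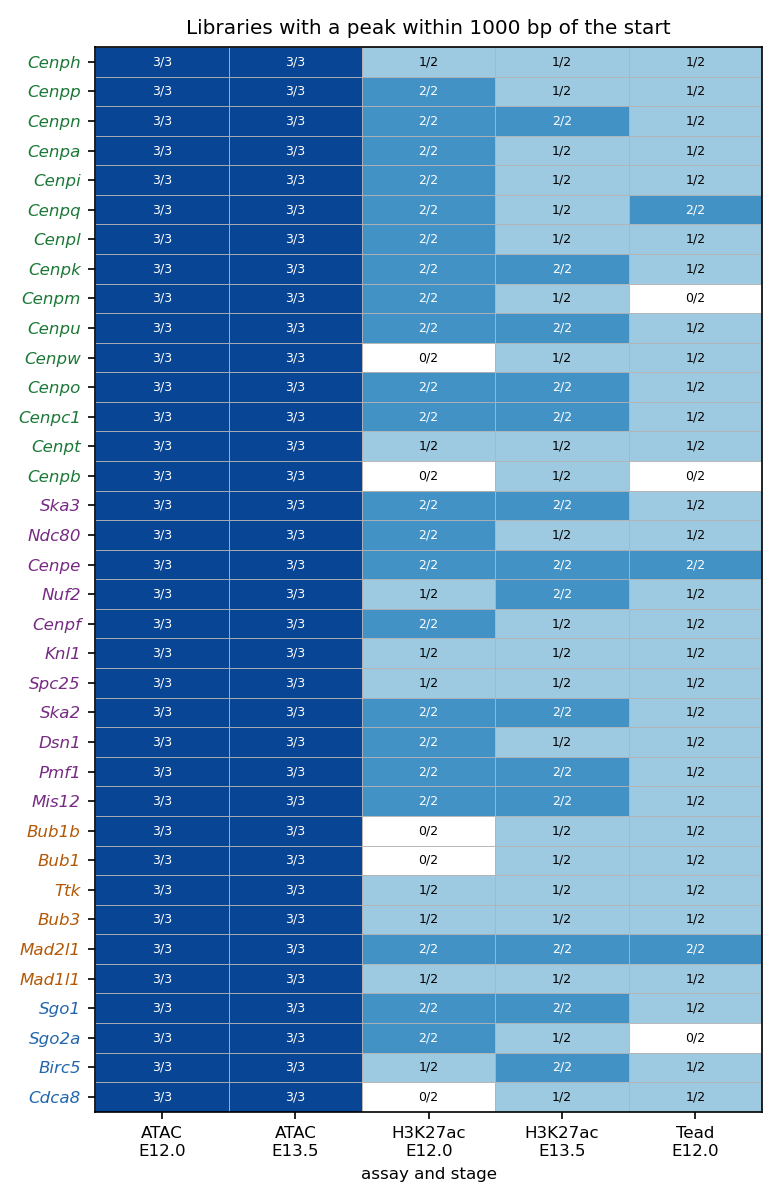
Number of libraries with a deposited peak within 1000 bp of any listed start, by assay and stage (of 3 for ATAC and of 2 for H3K27ac and Tead). The 36 genes with a listed start are ordered by role. The 2 ATAC columns are full for all 36 genes, while the H3K27ac columns are full for 22 and 14 and the Tead column for 3.

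Tead peaks at these starts depended on the library. Replicate 1, made with the KAPA HTP kit, had a peak at 3 of 36 starts, and replicate 2, made with Accel 2S Plus, at 33. The shares in these libraries were 4.8% and 36.2% of protein-coding genes, and 6.72% and 59.1% of those tested by RNA-seq. Both libraries held a peak at 3 starts (8.33%, beside 3.61% of protein-coding genes and 5.71% of those tested by RNA-seq), those of Cenpq, Cenpe and Mad2l1; none had −log10 q of at least 2 in both. Cenpb, Cenpm and Sgo2a had a Tead peak in neither library (8.33%, beside 62.6% and 39.9%). Only at Mad2l1 did the 2 libraries' peaks overlap each other, in the region chr6:66535072-66536241, with the authors' folds of 2.78 and 3.86. ATAC peaks overlapped that region in all 3 libraries of each stage, and H3K27ac peaks overlapped it in both libraries of each stage. Within 50000 bp of a start, such regions of both libraries lay near Mad2l1, Cenpt (24241 bp away) and Cenpb (29981 bp away), which is 8.33% of the 36 genes beside 11% of protein-coding genes and 14.7% of those tested by RNA-seq. The nearest to Bub1b lay 77471 bp away.

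The promoter letters were counted over 250 bases before to 50 bases after the first listed start, on both strands. CHR letters (TTTGAA or TTTAAA) were found in 18 of 36 promoters (50%), beside 25.5% of the 17492 protein-coding promoters of the same length and 18.6% of those of genes tested by RNA-seq. In a window of 50 bases to each side of the start, added after the data were seen, the count was 14 of 36 (38.9%), beside 6.84% and 4.7%; from 100 bases before to 50 after it was also 14, beside 11.2% of protein-coding promoters. CCAAT was found in 24 of 36 (66.7%, beside 39% and 39.1%), and both motifs in 13, beside 10.3% of protein-coding promoters. In Cenpw the 2 motifs share letters, and such overlaps were counted for each. E2F letters (TTTCGCGC, TTTGGCGC, TTTCCCGC or TTTGGCGG) were found in 4 (11.1%, beside 3.08% and 4.46%), those of Cenpm, Cenpl, Cenpb and Dsn1. Tead letters (GGAATG) were found in 4 (11.1%, beside 13.4% and 11.9%), those of Pmf1, Ska2, Mad2l1 and Sgo1. From 100 bases before to 50 after the Tead count was also 4, beside 6.13% of protein-coding promoters, and within 50 bases it was 3 (8.33%, beside 3.6%), so its place against the background turned with the window.

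By RNA call, CHR letters were in 14 of the 27 promoters of genes called lower, 1 of 3 called higher (Cenpt, at -232 and -205) and 3 of 6 not called. CCAAT was in 20 of 27, 0 of 3 and 4 of 6. Among the largest falls, Bub1b held CHR letters at 41, Ska3 at -14, and Ndc80 at 23 and 30, while Cenph, Bub1 and Sgo1 held CCAAT without CHR letters and Cenpp neither. Cenpc1, whose RNA was not called, held both, with CHR letters at 4 and a CCAAT box at 15. A match describes letters in the reference and not a bound site, and a missing match says only that these letters are not in this window.

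**Figure D5:**
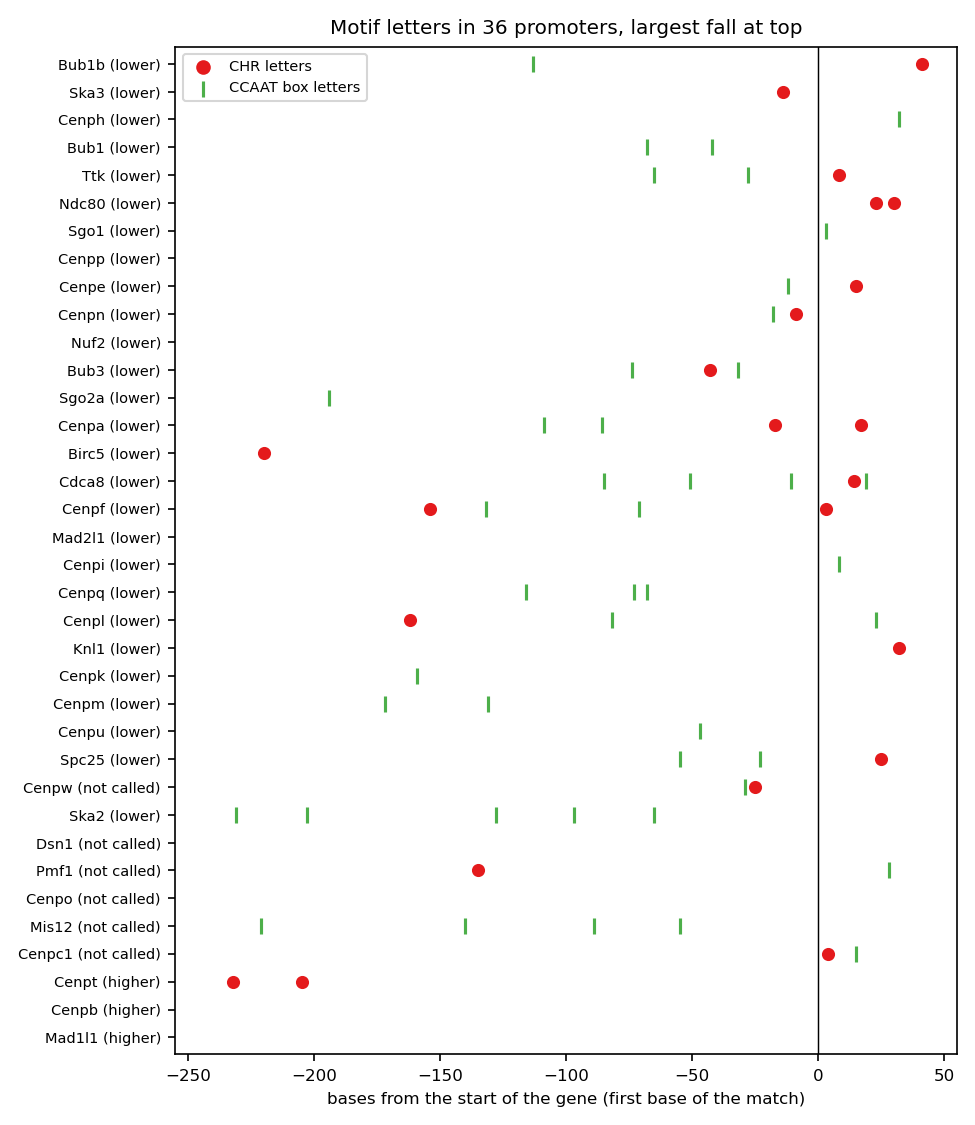
Position of the first base of each CHR match (red points) and CCAAT match (green ticks), in bases from the listed start (vertical line), in the 36 promoters ordered from the largest RNA fall to the largest rise, with the RNA call beside each name. CHR matches lie within 50 bases of the start in 14 promoters, and the 3 genes called higher hold no CCAAT match.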

How the data were processed

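The 41 genes and the other gene lists were chosen with earlier results of these data known. Per the file headers, each RNA table as deposited gives an Ensembl gene its length, its effective length and an expected count. Neither the counting tool nor its strand setting is given in the sources used here. Peaks were deposited as 1 list per library, each peak with the authors' fold (a ratio of signal over background), −log10 p and −log10 q, and a score, left aside here. STAR, MACS2 and UMI-tools appear without versions in the submitters' processing notes, beside the builds mm10 and GRCm38.

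Members were matched by Ensembl identifier. Expected counts were rounded, filtered with filterByExpr (15982 of 48709 genes), TMM-scaled, and compared between stages by the quasi-likelihood F test of edgeR 4.0.16 (no covariate, Benjamini-Hochberg over all genes tested, threshold 0.05) in R 4.3.3. The standard error is the log2 fold change over the root of F. Alternatives used DESeq2 1.42.0, limma 3.58.1 on log2(TPM + 1) and on log2(TPM + 0.1), other scalings and filters, and each library left out in turn. The steps were tested on simulated data. TPM came from expected counts and effective lengths.

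A peak was counted at a start where it overlapped the window of 1000 bp to each side by 1 bp or more. Starts and promoter letters were taken from RefSeq promoters of GRCm38.p6, read with pandas 2.3.3 in Python 3.11.15. Peaks were counted at any listed start of a gene, and letters in its first listed promoter. Windows and motifs were searched for the 36 of 41 genes in that table. Gene spans came from a RefSeq gene table of the same build.

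No 2 replicates agreed within sampling noise: over genes, chi-square was 29.7 times its degrees of freedom at E12.0 and 46.7 times at E13.5. Values in every library are given for 26 genes fixed by name, and in each role for the 2 genes with the largest fall and the 2 with the smallest change or largest rise; Cenpo, Cenpw, Ska2 and the genes named for peaks, sequences or lost calls were chosen after their values were seen.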

Additional observations from a re-analysis of the deposited data

How the results depend on the processing

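Of the 35 members called, 22 kept their call and direction under every alternative tried. The members' calls were 32 lower and 3 higher with DESeq2 (24.6% and 20.7% of all genes) and 27 and 4 with library totals only (15.6% and 36.3%). They were 22 and 4 on log2(TPM + 1) (13.1% and 42.7%) and 21 and 4 on log2(TPM + 0.1) (12.5% and 40.8%). The gene added to the higher calls was Cenpc1, at 0.79 with library totals only (edgeR adjusted p = 0.0361). On the TPM scales its change was 1.17 and 1.21 (limma adjusted p = 0.0137 and 0.018). With log2(TPM + 1) centred it was 0.425 and not called (limma adjusted p = 0.239). Among members whose span overlaps no other gene, 22 of 27 were lower and 1 was higher, a setting that leaves out 14 genes. Of the inner centromere genes 5 were lower on either TPM scale and 6 against a 2-fold null (13.9% of all genes). Of the outer kinetochore genes 7 were lower on either TPM scale. The median of the 41 was -1.56 with library totals only (0.62 over all genes), -1.39 on log2(TPM + 1) and -1.54 on log2(TPM + 0.1), and ran from -2.51 to -1.96 with 1 library left out. The labels do not say whether replicate numbers pair the samples. Over genes, the replicate differences of the stages had a Pearson r of -0.005, which shows no shared replicate effect but cannot exclude pairing. With the replicate block 31 members were lower and 3 higher, beside 23.1% and 21.5% of all genes. Cenpm was the call lost (edgeR adjusted p = 0.0589).

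Directions reversed for Cenpo (0.53 and 0.60 on the TPM scales with pseudocounts 1 and 0.1, and -1.16 to 0.45 with 1 library left out), Knl1 (0.84 and 0.98 on the same scales, 0.09 when centred, and 0.16 with the length offset), Dsn1 (0.40 and 0.41), Pmf1 (0.20 and 0.20) and Mis12 (-0.02 with a stricter filter, -0.03 without E12.0 replicate 1 and -0.12 without E13.5 replicate 1). The cause was not tested.

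The H3K27ac count at E13.5 was 14 or 36 with 1 library left out, and 9 with −log10 q of at least 2. The count of Tead starts was 1 within 250 bp, 6 within 5000 bp and 0 with −log10 q of at least 2, and 3 or 33 with 1 library left out. CCAAT letters were in 15 promoters within 50 bases of the start, and E2F letters in 2 from 100 bases before and in 1 within 50 bases. The length offset, the windows of 50 bases, any listed promoter and the members without overlap were added after the data were seen. With 2 libraries per stage, a change below 2-fold was seldom called, and a lone library left in a stage is assumed to vary like the other stage.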
